A study of Mus musculus with 24 samples.

Results

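The genes described here are the 4 ERBB receptors (Egfr, Erbb2, Erbb3 and Erbb4) and 6 of their ligands (Nrg1, Nrg4, Egf, Tgfa, Hbegf and Btc), measured by RNA sequencing in mammary tumors and normal mammary glands of mice. They were chosen as the rows of the count table whose Ensembl identifiers carry these symbols in the GENCODE M1 annotation, which gave 10 of the 37991 genes in the table. All 10 were among the 14918 genes tested, which had at least 1 CPM (the count scaled to the size of the library) in at least 12 of the 24 samples. PyMT mice were F1 females heterozygous for the MMTV-PyVT transgene, in which the mouse mammary tumor virus promoter drives the polyoma middle T antigen in mammary epithelium. FVB mice were females of the same strain and ages without the transgene, and the labels give no treatment for either genotype. Tumors or glands of 3 PyMT and 3 FVB mice were taken at each of weeks 6, 8, 10 and 12, when the PyMT lesions stand for hyperplasia, adenoma/MIN (mammary intraepithelial neoplasia), early carcinoma and late carcinoma. The genotypes thus differ in the transgene and in the tissue it gives, tumors in PyMT and a gland of epithelium, fat and stroma in FVB.

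The ERBB receptors are tyrosine kinases at the cell surface that act as pairs. EGF, TGF-alpha, HB-EGF, betacellulin and amphiregulin bind EGFR, and HB-EGF and betacellulin can also bind ERBB4. The neuregulins bind ERBB4, and some of them, such as NRG1 but not NRG4, also bind ERBB3. ERBB2 has no known ligand of its own and is the preferred partner of the others, while ERBB3 has little kinase activity and signals mainly through its partner to PI3-kinase. In the mammary gland amphiregulin and EGFR take part in the growth of the ducts at puberty, ERBB4 acts through STAT5A in milk production, and ERBB2 is amplified in a part of human breast cancers.

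Total counts ran from 6969375 to 13516601 per library, with a median of 8280269. When genes were tallied by their count, 13 of the 24 libraries (6 PyMT and 7 FVB) showed a peak between 8 and 25 counts, called the packet size here, and the other 11 showed none. Genes without a read were tallied among 3799 genes of middling level, whose median CPM lay between 10 and 30. Their share was 4.396% in FVB week 10 replicate 3 (packet size 19) and 2.869% in PyMT week 8 replicate 2 (packet size 23). It was 1.658% in PyMT week 6 replicate 2 (packet size 25) and 0.0% in PyMT week 6 replicate 3 (packet size 13). In libraries without packets it was at most 0.211%. Packets may limit low genes most, but their effect on low genes was not tested. Packets were uneven over the replicate numbers. Every replicate 2 library but that of PyMT week 12 had them, and of replicate 3 only those of PyMT week 6 and FVB week 10. Libraries with packets were also uneven over the groups, and included all 3 of PyMT week 6 and all 3 of FVB week 10. A fit of the 11 libraries without packets, with week as a factor, thus compares the genotypes at weeks 8 and 12 only. The tissue label was checked against marker genes. Over all weeks 8.51% of all tested genes were called higher in PyMT and 17.2% lower. Of 8 luminal epithelial markers 6 were called higher and none lower, though 1 was lower by the adjusted p alone. All 8 adipocyte, all 8 fibroblast and all 6 endothelial markers were called lower. The 8 basal markers included 5 called lower, the 8 Schwann cell markers 2 called higher and 5 lower, the 6 macrophage markers 1 called lower, the 6 brown fat markers 6 called lower and the 10 skeletal muscle markers 9 called lower. Of the 8 B and T cell markers 1 was expressed highly enough to be tested, and it was not called. The skeletal muscle markers varied most between mice of a group, with summed normalized counts of 125 to 630688 in FVB and 75.5 to 35652 in PyMT.

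The receptors are close relatives, so the bases that encode their catalytic loop, among the best conserved stretches of the kinase domain, are shown to give the distance between them at its shortest. Each line is 24 bases of coding strand in exon 21 of the receptor on the NCBIM37 (mm9) assembly, and capitals mark the codon of the catalytic aspartate.
Egfr, chr11:16804341-16804364, + strand: caccgtGACttggcagccaggaat
Erbb2, chr11:98295561-98295584, + strand: cacaggGACctagctgcccgaaac
Erbb3, chr10:128009589-128009612, - strand: cataggGACcttgcgctccggaat
Erbb4, chr1:68127313-68127336, - strand: catcggGATctggcagcccgcaat
The aspartate codon was GAC in Egfr, Erbb2 and Erbb3 and GAT in Erbb4, a substitution of C9T from each of the other receptors to Erbb4 when bases are counted from 1 at the 5′ end. Egfr and Erbb4 shared 18 of the 24 bases, the most of the 6 pairs, and Egfr and Erbb3 shared 15, the fewest.

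Per kilobase of exon, Erbb3 was the most abundant receptor mRNA in PyMT tumors and Erbb4 the least abundant in both genotypes. Over the 12 PyMT libraries the level of Erbb3 was 47.5 ± 4.41 CPM per kb (mean ± SD), against 15.9 ± 3.55 for Egfr, 14.7 ± 3.86 for Erbb2 and 2.44 ± 1.18 for Erbb4. In the 12 FVB libraries Erbb3 and Egfr were close, at 22.7 ± 9.94 and 21.8 ± 5.55 CPM per kb, with Erbb2 at 14.6 ± 5.01 and Erbb4 at 1.01 ± 0.803. Erbb3 made up a median of 58.7% of the summed receptor level in PyMT (48.2 to 72.9%) and 38.2% in FVB (22.0 to 47.9%). These ranges came close without overlap, at 48.2% and 47.9%. Egfr made up 19.0% in PyMT (15.7 to 24.8%) and 37.7% in FVB (26.9 to 51.7%), again without overlap. These shares are given as a description, without a test and without a background over all genes. As the 4 shares of a library sum to 100%, those of Erbb3 and Egfr are not independent. Levels in CPM are scaled to library totals, and the genotypes can compare differently in counts divided by size factors. For Erbb2 the mean of the latter was 587 in PyMT and 710 in FVB.

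**Figure D1:**
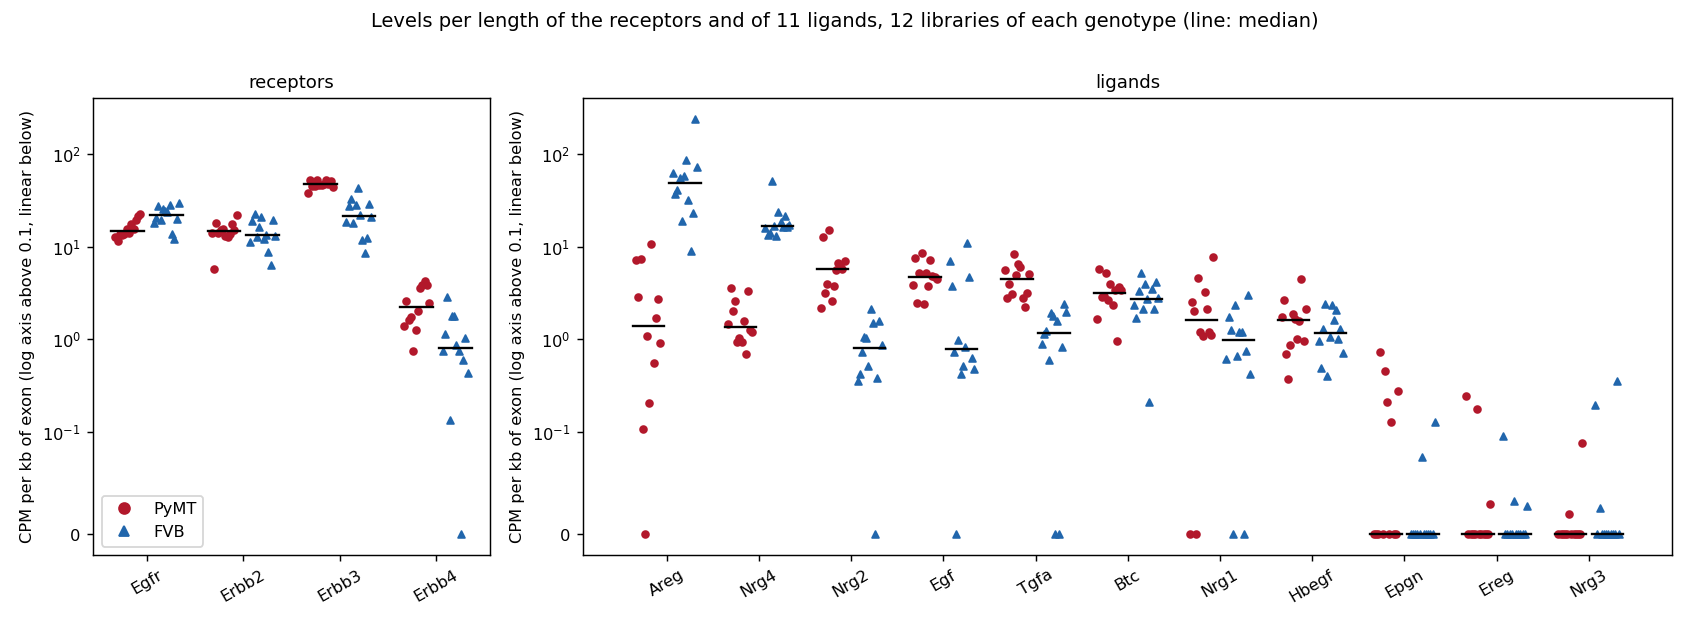
Level of the 4 receptors and of 11 ERBB ligands in CPM per kb of exon, on a log axis that is linear below 0.1, with 1 point per library (12 PyMT, red circles, and 12 FVB, blue triangles) and a line at the median. Erbb3 stands above the other receptors in PyMT, and the medians of Areg and Nrg4 stand above those of the other ligands in FVB.

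Which members differed between tumor and normal gland was asked week by week. A gene was called when edgeR's quasi-likelihood test gave an adjusted p under 0.05 and the fold change was above 2. Nrg4 was called lower in PyMT at all 4 weeks, Egfr lower at week 6, Erbb3 higher at week 10 and Erbb4 higher at week 12. No other member was called at any week. Thus at week 6 there were 0 of 10 members called higher and 2 lower, where 3.58% of all tested genes were called higher and 6.46% lower. At week 8 there were 0 higher and 1 lower (3.57% and 6.37% of all genes), at week 10 there were 1 higher and 1 lower (4.74% and 9.13%), and at week 12 there were 1 higher and 1 lower (7.75% and 13.0%). With week as a factor, the 12 PyMT against the 12 FVB samples gave 1 member higher (Tgfa) and 1 lower (Nrg4), against 8.51% and 17.2% of all genes. By the adjusted p alone 2 members passed at week 6 (11.9% of all genes), 2 at week 8 (11.2%), 3 at week 10 (16.1%), 3 at week 12 (27.8%) and 4 over all weeks (51.1%). From the first week to the last the median log2 fold change of the 10 members was 0.06, -0.26, 0.01 and 0.78, beside -0.08, -0.04, 0.00026 and -0.00046 for all tested genes. These splits depend on the scaling. With library size in place of TMM factors the calls over all weeks were 2063 higher and 1996 lower instead of 1269 and 2571. Week by week they were 777 and 645 instead of 534 and 964, 831 and 744 instead of 533 and 951, 983 and 950 instead of 707 and 1362, and 2066 and 1520 instead of 1156 and 1936, as the median of all tested genes moved up to between 0.20 and 0.32. Counts of 0 members called higher, at weeks 6 and 8, stood beside 4 members at an unadjusted p under 0.05 in either direction at each of these weeks, and DESeq2's Wald test called 1 member higher at week 6 (Tgfa) and 2 at week 8 (Egf and Tgfa).

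**Figure D2:**
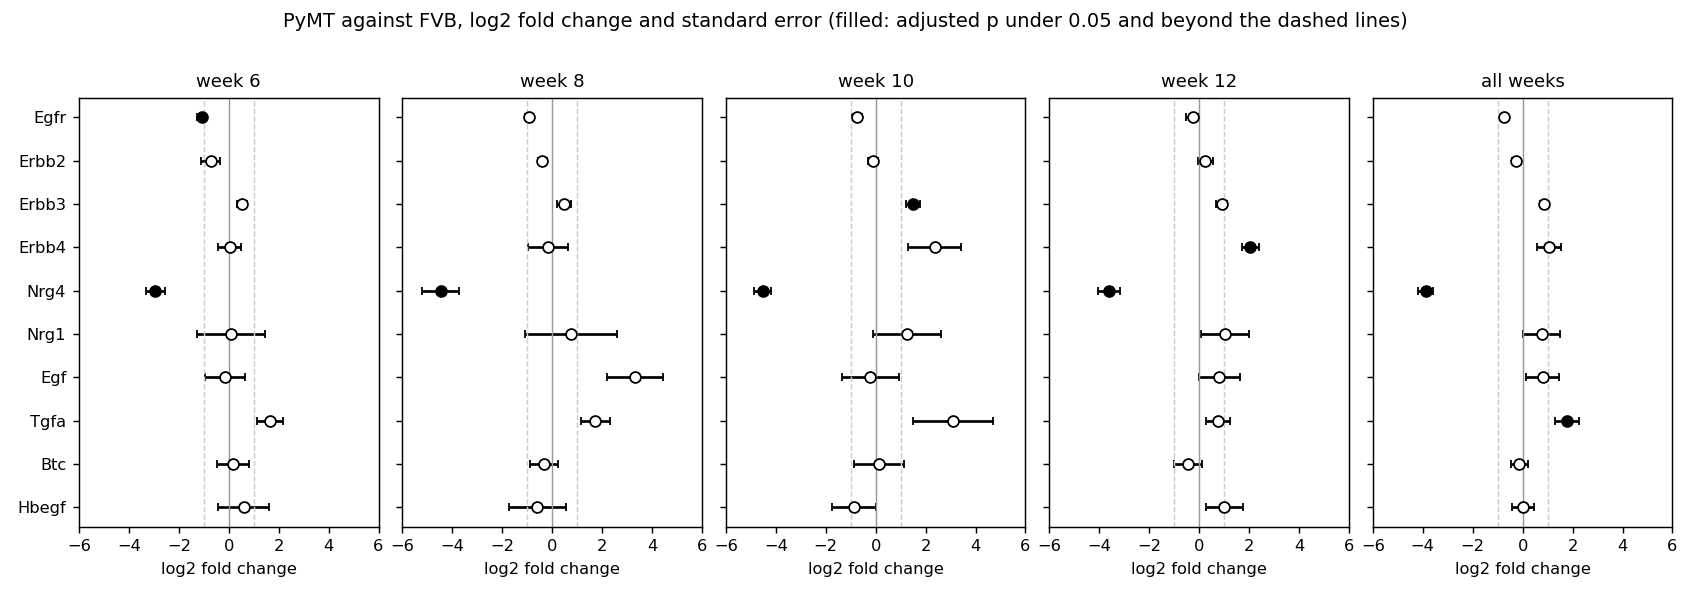
Log2 fold change of PyMT against FVB for the 10 members at each week and over all weeks, with bars of 1 standard error. Filled points have an adjusted p under 0.05 and lie beyond the dashed lines at a 2-fold change. Nrg4 is filled and far left of 0 in every panel, and the widest bars belong to Nrg1 at week 8 and Tgfa at week 10.

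Egfr (ENSMUSG00000020122, chr11:16652206-16818161, + strand), the receptor of EGF and its relatives, was called lower in PyMT at week 6 and had smaller differences in the same direction at the later weeks. Its normalized counts, which are counts divided by the size factor of the library, were 1144, 1041 and 1183 in the 3 PyMT samples of week 6 against 2398, 2022 and 2639.5 in FVB. At week 8 they were 1147, 1209.5 and 1306 against 2205, 2489 and 2354. At week 10 they were 1182, 1514 and 1340.0 against 2299.9, 2716 and 1951, and at week 12 they were 1704, 1809.9 and 1953 against 1536, 2000.0 and 3231. The groups were thus apart at the first 3 weeks and overlapped at week 12, where the PyMT samples were the highest of the 12 PyMT samples. Groups without overlap and lower in PyMT were seen in 20.4% of all tested genes at week 6, 21.7% at week 8 and 21.6% at week 10. In edgeR's test the log2 fold change of week 6 was -1.07 ± 0.18 (SE, adjusted p = 0.0085), that of week 8 was -0.93 ± 0.17 (adjusted p = 0.016), that of week 10 was -0.75 ± 0.20 (adjusted p = 0.04) and that of week 12 was -0.26 ± 0.27 (adjusted p = 0.52). An adjusted p under 0.05 was kept in 12 of 13 alternatives at week 6, in 10 at week 8 and in 6 at week 10. At week 10 it was lost when any sample but FVB replicate 3 was left out, and it reached 0.34 with library size only. At week 8 it was lost without PyMT replicate 1 (0.083) or FVB replicate 2 (0.059) and with library size only (0.056). Over all weeks the difference was -0.76 ± 0.11 (edgeR, adjusted p = 5.3e-06), and in the 11 libraries without packets it was -0.54 ± 0.24 and did not pass (adjusted p = 0.10). The fit without packets compared the genotypes at weeks 8 and 12 only, and so left out week 6, which had the largest difference. The call at week 6 rested on a fold close to 2: it was -0.96 without PyMT replicate 2 and -0.93 without FVB replicate 3, both with an adjusted p under 0.05.

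Within PyMT, Egfr at week 12 was 0.73 ± 0.14 higher on the log2 scale than at week 6, with no overlap (as in 7.93% of all tested genes), and did not pass (edgeR, adjusted p = 0.053), while DESeq2's Wald test gave 0.72 ± 0.14 with an adjusted p of 0.00042. In FVB the same difference was -0.09 ± 0.25 (adjusted p = 1.0). Between weeks 6 and 12 the genotype difference moved by 0.80 ± 0.29 and did not pass (edgeR, adjusted p = 0.94). In the order of the 8 group means, the 4 FVB groups stood above the 4 PyMT groups, and the ranges of neighbours overlapped at every step but that from PyMT week 12 to PyMT week 10.

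Erbb2 (ENSMUSG00000062312, chr11:98273784-98299030, + strand), the partner receptor without a ligand, was not called and did not pass at any week. Normalized counts in PyMT were 580.4, 239.9 and 713 at week 6, 558, 612 and 599 at week 8, 499, 496 and 554 at week 10 and 711, 594 and 882 at week 12. FVB samples had 680.3, 865 and 992 at week 6, 672, 738 and 933 at week 8, 539, 602 and 581 at week 10 and 371, 886 and 656 at week 12. The groups were apart at week 8, with PyMT lower as in 21.7% of all tested genes, and overlapped at the other weeks. The log2 fold change ran from -0.72 ± 0.38 at week 6 to 0.24 ± 0.31 at week 12 and was -0.25 ± 0.16 over all weeks (edgeR, adjusted p = 0.19). The exons of Erbb2 overlap those of Mien1 (1810046J19Rik) on the other strand. The libraries were directional, and whether strand was used in counting was not given in the sources used here, so that reads in the overlap cannot be assigned with certainty.

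Erbb3 (ENSMUSG00000018166, chr10:128004579-128026708, - strand), the neuregulin receptor that signals through its partners, was nearly constant in PyMT and lower and more variable in FVB. PyMT normalized counts were 1821, 2568 and 2083 at week 6, 2053, 2441 and 2067 at week 8, 2052, 2158 and 2456 at week 10 and 2186, 2308 and 2018 at week 12. FVB counts were 1315, 1453 and 1656 at week 6, 1089, 1457 and 2224 at week 8, 1142, 614 and 654 at week 10 and 848, 1539 and 1209 at week 12. PyMT stood above FVB without overlap at weeks 6, 10 and 12, a pattern seen in 16.2%, 18.9% and 21.5% of all tested genes, and 1 FVB sample of week 8 lay within the PyMT range. In edgeR's test the log2 fold change of week 6 was 0.54 ± 0.19 (adjusted p = 0.11), that of week 8 was 0.47 ± 0.27 (adjusted p = 0.30), that of week 10 was 1.51 ± 0.28 (adjusted p = 0.009) and that of week 12 was 0.90 ± 0.23 (adjusted p = 0.02). The call at week 10 was made in all 13 alternatives tried. None of these set packets aside, and all 3 FVB libraries of week 10 had them (sizes 12, 13 and 19), against replicate 2 alone in PyMT. The difference at week 12 kept an adjusted p under 0.05 in 9 of 13, and lost it when any 1 PyMT sample or FVB replicate 3 was left out (adjusted p up to 0.07). Over all weeks the value was 0.84 ± 0.15 (edgeR, adjusted p = 3.8e-05), and in the 11 libraries without packets it was 0.62 ± 0.25 (adjusted p = 0.079). The latter fit compared the genotypes at weeks 8 and 12 only, and so left out week 10, which had the largest difference.

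The summed level of the 8 luminal markers was higher in PyMT, as was Erbb3, and moved with Erbb3 within FVB only. Of all tested genes 3.58%, 3.57%, 4.74% and 7.75% were called higher at weeks 6, 8, 10 and 12. At these weeks 4, 3, 6 and 5 of the luminal markers were called higher, none was called lower, and none was at 0 in any library. Their sum was 19257 to 37580 normalized counts in PyMT and 4019 to 18933 in FVB. Within the 12 FVB samples log2 Erbb3 and the log2 sum had a Pearson r of 0.71 and within the 12 PyMT samples one of 0.12, as a description of libraries that also share depth and packets. The part of luminal cell number in the difference of Erbb3 was not tested.

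Erbb4 (ENSMUSG00000062209, chr1:68078760-69154633, - strand), the neuregulin receptor linked to STAT5A, was the lowest receptor and was called higher in PyMT at week 12 alone. Its normalized counts in PyMT were 135, 256 and 153 at week 6, 160.3, 71 and 113 at week 8, 182, 332 and 366 at week 10 and 403, 357 and 234 at week 12. In FVB they were 108, 122 and 299 at week 6, 16, 191 and 189 at week 8, 91, 79 and 0 at week 10 and 83, 112 and 51 at week 12. The groups overlapped at weeks 6 and 8 and were apart at weeks 10 and 12, with PyMT higher as in 18.9% and 21.5% of all tested genes. The log2 fold change of the first 2 weeks was 0.03 ± 0.47 and -0.18 ± 0.80. That of week 10 was 2.37 ± 1.06 (edgeR, adjusted p = 0.18) and that of week 12 was 2.05 ± 0.36 (adjusted p = 0.0042). In a fit of all 24 samples the week 12 value was 2.03 with an adjusted p of 0.090. Over all weeks Erbb4 differed by 1.05 ± 0.47 and did not pass (edgeR, adjusted p = 0.068). It was called higher over all weeks in 6 of 31 alternatives, among them DESeq2's Wald test.

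The value of 0 belonged to FVB week 10 replicate 3, the library with the most mid-level genes at 0. Without it the week 10 difference was 1.82 ± 0.40 and was called (edgeR, adjusted p = 0.015). Within PyMT the step from week 8 to week 10 was 1.37 ± 0.37 without overlap of the groups, as in 4.06% of all tested genes, and it did not pass over all genes (edgeR, adjusted p = 1.0). Between weeks 8 and 10 the genotype difference moved by 2.54 ± 1.16 and did not pass (adjusted p = 1.0). In FVB log2 Erbb4 and the log2 luminal sum had a Pearson r of 0.75, in PyMT one of -0.45.

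**Figure D3:**
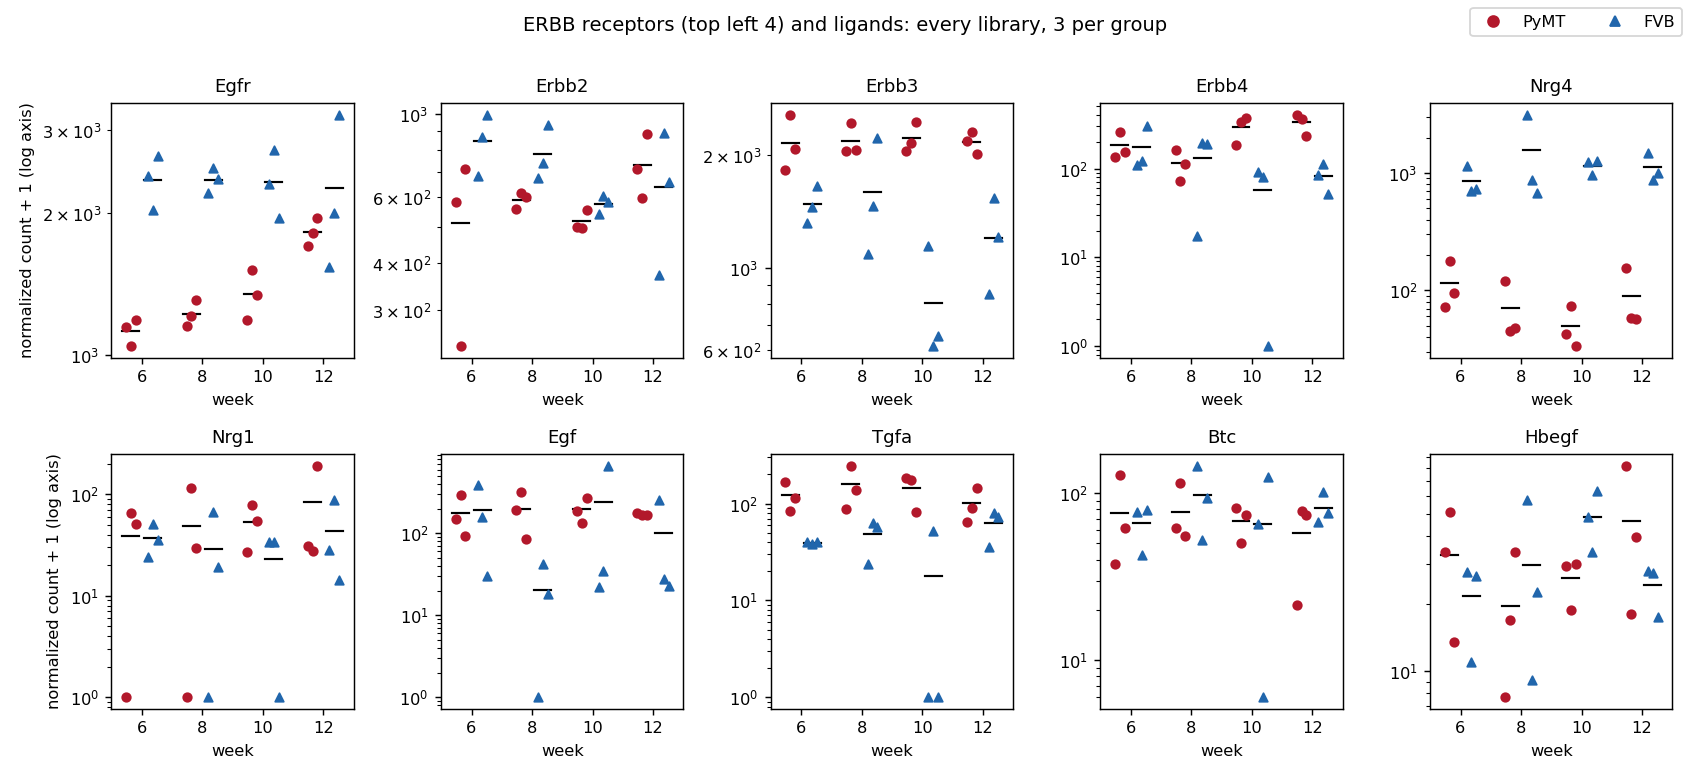
Normalized count + 1 of the 10 members on a log axis, with 1 point per library (3 PyMT, red circles, and 3 FVB, blue triangles, at each of weeks 6, 8, 10 and 12) and a line at the group mean. Nrg4 separates the genotypes at every week, Egfr approaches FVB at week 12, and points at 1 are libraries with no read of the gene.

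Nrg4 (ENSMUSG00000032311, chr9:55068029-55174651, - strand), a neuregulin known as a factor secreted by adipose tissue that binds ERBB4, showed the largest log2 fold change of the 10 members in edgeR's test with TMM factors, no block and all samples, at each week and over all weeks. PyMT normalized counts were 71, 176 and 93 at week 6, 119, 44 and 46 at week 8, 42, 72 and 32 at week 10 and 155, 57 and 55 at week 12. Those of FVB were 1139, 707 and 723 at week 6, 3136, 873 and 672 at week 8, 1238, 969 and 1254 at week 10 and 1474, 877 and 1006 at week 12. The highest PyMT sample (176) lay below the lowest FVB sample (672), a separation of all 24 libraries in this direction that 7.22% of all tested genes shared. In edgeR's test the log2 fold change of week 6 was -2.94 ± 0.38 (adjusted p = 0.0033), that of week 8 was -4.47 ± 0.73 (adjusted p = 0.011), that of week 10 was -4.53 ± 0.34 (adjusted p = 0.00023) and that of week 12 was -3.61 ± 0.43 (adjusted p = 0.00082). Over all weeks it was -3.89 ± 0.31 (edgeR, adjusted p = 3e-10), a level 14.8-fold lower in PyMT. In the libraries without packets, which compare the genotypes at weeks 8 and 12 only, it was -3.87 ± 0.42 (edgeR, adjusted p = 0.0002). Every alternative kept the calls of all 4 weeks. Its exons overlap Fbxo22 and Gm15625 on the other strand, with the same uncertainty as for Erbb2.

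Adipocyte markers moved with Nrg4. Of all tested genes 6.46%, 6.37%, 9.13% and 13.0% were called lower at weeks 6, 8, 10 and 12. All 8 adipocyte markers were called lower in PyMT at weeks 6, 10 and 12 and 7 at week 8, and none was at 0 in any library. Their summed normalized count was 1014 to 15456 in PyMT (median 6215) and 46492 to 129895 in FVB (median 89610), and their median log2 fold change was -2.47, -4.02, -4.86 and -4.39 at the 4 weeks in turn and -3.95 over all weeks. Between log2 Nrg4 and the log2 sum, Pearson r was 0.79 over the 12 PyMT samples and 0.72 over the 12 FVB samples, as a description. The sum of 6 brown fat markers ran from 106 to 6090 in PyMT libraries and from 224 to 15653 in FVB libraries, and r with Nrg4 was 0.80 and 0.67. In these bulk samples fewer cells of a type and less RNA per cell cannot be told apart, and the part of fat content in the difference of Nrg4 was not tested.

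**Figure D4:**
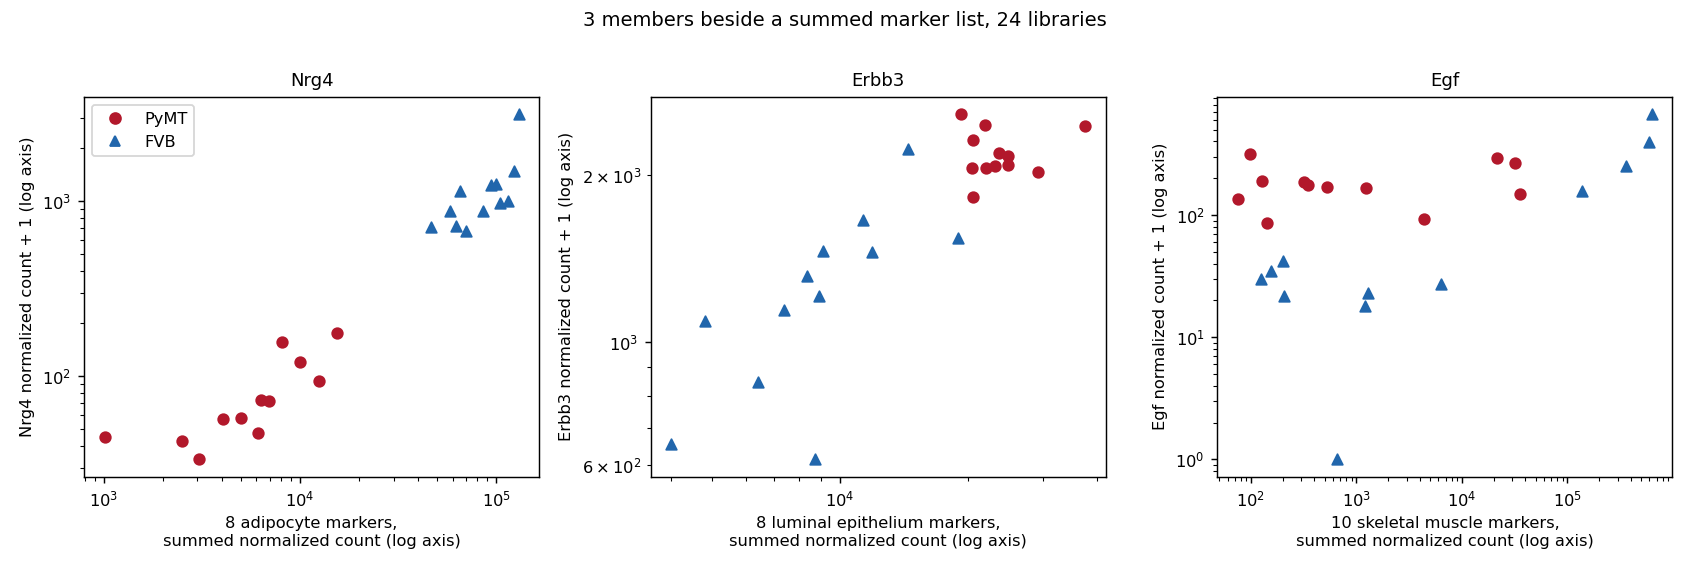
Normalized count + 1 of Nrg4, Erbb3 and Egf (log axes) against the summed normalized count of 8 adipocyte, 8 luminal and 10 skeletal muscle markers, with 1 point for each of 12 PyMT (red circles) and 12 FVB (blue triangles) libraries. Nrg4 and the adipocyte sum are both lower in every PyMT library than in any FVB library. The FVB libraries with the highest Egf are those with the highest muscle sum.

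Nrg1 (ENSMUSG00000062991, chr8:32928500-33119581, - strand), the first described neuregulin and a ligand of ERBB3 and ERBB4, was low and had no read in 2 PyMT and 2 FVB libraries. Its normalized counts ran from 0 to 189 in PyMT, with a median of 39.6, and from 0 to 85.7 in FVB, with a median of 29.98. The groups overlapped at every week. The log2 fold change was 0.76 ± 0.74 over all weeks (edgeR, adjusted p = 0.41), so that 2 standard errors were wider than a 2-fold change. Its exons overlap Gm17443 on the other strand.

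Egf (ENSMUSG00000028017, chr3:129380493-129458240, - strand), the founding EGFR ligand, varied widely between the FVB mice of each week. PyMT normalized counts were 147, 291 and 91 at week 6, 189, 317 and 84 at week 8, 184, 134 and 266 at week 10 and 175, 167 and 165 at week 12. FVB samples had 391, 157 and 29 at week 6, 0, 41 and 17 at week 8, 21, 34 and 667 at week 10 and 252, 26 and 22 at week 12. The groups were apart at week 8 alone, with PyMT higher, as in 18.4% of all tested genes. Its log2 fold change of week 8 was 3.33 ± 1.12 (edgeR, adjusted p = 0.097), those of weeks 6, 10 and 12 were -0.15 ± 0.80, -0.21 ± 1.13 and 0.81 ± 0.83, and that over all weeks was 0.80 ± 0.64 (adjusted p = 0.32).

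FVB samples with an Egf of 391, 157, 667 and 252 had skeletal muscle marker sums of 599002, 138665, 630688 and 359550, and the sums of the other 8 FVB samples were 125 to 6308. Without FVB week 10 replicate 3, which had the highest sum, the week 10 difference was 2.88 ± 0.52 and was called (edgeR, adjusted p = 0.006). Without FVB week 12 replicate 1 the week 12 difference was 2.85 and was called (adjusted p = 0.0025), and without FVB week 8 replicate 1, which had no Egf read, the week 8 difference was 2.79 and was called (adjusted p = 0.048). In PyMT the muscle sum was 75.5 to 35652 and log2 Egf had a Pearson r of 0.19 with it, against 0.76 in FVB. The part of muscle in the level of Egf was not tested.

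Tgfa (ENSMUSG00000029999, chr6:86145420-86225151, + strand), an EGFR ligand made by epithelial cells, was called higher in PyMT over all weeks but not at any single week. Its normalized counts in PyMT were 167, 83 and 113 at week 6, 88, 245 and 136 at week 8, 181, 172 and 81 at week 10 and 64, 89.7 and 145 at week 12. In FVB they were 39, 37 and 39 at week 6, 23, 62 and 57 at week 8, 0, 51 and 0 at week 10 and 35, 78 and 71 at week 12. PyMT stood above FVB without overlap at the first 3 weeks, as in 16.2%, 18.4% and 18.9% of all tested genes, and the groups overlapped at week 12. In edgeR's test the log2 fold change of week 6 was 1.65 ± 0.51 (adjusted p = 0.077), that of week 8 was 1.73 ± 0.59 (adjusted p = 0.099), that of week 10 was 3.10 ± 1.61 (adjusted p = 0.24) and that of week 12 was 0.75 ± 0.49 (adjusted p = 0.30). Over all weeks it was 1.78 ± 0.50 (edgeR, adjusted p = 0.0045). The 2 FVB libraries of week 10 without a Tgfa read had packet sizes of 12 and 19. In the 11 libraries without packets, which compare the genotypes at weeks 8 and 12 only, the difference was 1.12 ± 0.39 (edgeR, adjusted p = 0.048). All 31 alternatives of the comparison over all weeks kept the call. Log2 Tgfa and the log2 luminal sum had a Pearson r of 0.60 in PyMT and 0.62 in FVB.

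Btc (ENSMUSG00000082361, chr5:91786287-91831939, - strand) encodes betacellulin and Hbegf (ENSMUSG00000024486, chr18:36664583-36675459, - strand) encodes HB-EGF, both ligands of EGFR and ERBB4, and neither was called or passed at any week. Btc normalized counts ran from 20.6 to 127 in PyMT (median 67.0) and from 5.0 to 145 in FVB (median 76.0). The log2 fold change of Btc was -0.13 ± 0.35 over all weeks (edgeR, adjusted p = 0.79), so that 2 standard errors on either side stayed within a 2-fold change. Hbegf ran from 6.7 to 81.2 in PyMT (median 28.7) and from 8.1 to 62.6 in FVB (median 26.6), with a log2 fold change of 0.02 ± 0.44 (adjusted p = 0.97). At week 10 the Hbegf counts of 28, 18 and 29 in PyMT lay below 47, 33 and 63 in FVB, as in 21.6% of all tested genes, but the difference of -0.87 ± 0.87 did not pass (edgeR, adjusted p = 0.57).

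No member was called between weeks or in the change of the genotype difference between weeks. From week 8 to week 10 this change was called in 0 of 10 members and 0.0067% of all tested genes, with 3 members (Egf, Erbb3 and Erbb4) at an unadjusted p under 0.05 in edgeR. From week 6 to week 12 it was called in 0 of 10 and 0.0% of all genes, with 2 members (Egfr and Erbb2) at an unadjusted p under 0.05. In PyMT 0 of 10 members were called from week 8 to 10, where 0.0% of all genes were, with Erbb4 at an unadjusted p under 0.05, and 0 from week 6 to 12, where 0.101% of all genes were, with Egfr and Erbb4 at an unadjusted p under 0.05. In FVB 0 of 10 were called from week 8 to 10 and from week 6 to 12, where 0.0% of all genes were called in either comparison, with 2 members (Egf and Erbb3) and 0 members at an unadjusted p under 0.05. DESeq2's Wald test and limma voom called none in any of these 6 comparisons, and without the filter on low counts edgeR called Erbb4 in PyMT from week 8 to 10.

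The other ERBB ligands hold 5 genes, of which Areg and Nrg2 were expressed highly enough to be tested. Areg, encoding amphiregulin, was called lower in PyMT at weeks 6, 8 and 12. Its PyMT normalized counts were 69, 27 and 68 at week 6, 0.95, 0 and 9.4 at week 8, 1.8, 97 and 5.1 at week 10 and 15, 25 and 8.3 at week 12. In FVB they were 873, 392 and 418 at week 6, 671, 198 and 591 at week 8, 896, 326 and 136 at week 10 and 313, 2534 and 849 at week 12. No PyMT sample reached the lowest FVB sample, as in 7.22% of all tested genes. In edgeR's test the log2 fold change of week 6 was -3.35 ± 0.49 (adjusted p = 0.005), that of week 8 was -6.86 ± 1.01 (adjusted p = 0.0079), that of week 10 was -3.73 ± 1.31 (adjusted p = 0.097) and that of week 12 was -6.22 ± 0.84 (adjusted p = 0.0014).

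Nrg2, another neuregulin, lay in the opposite direction. Its normalized counts spanned 54.3 to 368 in the PyMT libraries and 0 to 56.1 in the FVB libraries, and it was called higher at week 6 (3.31 ± 0.80, edgeR, adjusted p = 0.034) and week 12 (2.49 ± 0.48, adjusted p = 0.0067). At weeks 8 and 10 the values were 2.78 ± 0.79 (adjusted p = 0.062) and 1.98 ± 1.16 (adjusted p = 0.30). The call at week 6 was lost when any 1 of 5 of the 6 libraries was left out, with an adjusted p up to 0.13 over the alternatives. Ereg, Epgn and Nrg3 had no read in 9, 7 and 10 of the 12 PyMT libraries and in 9, 10 and 9 of the 12 FVB libraries.

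Shares of the summed ligand level were taken per kilobase of exon. Over the 11 ligands, Areg made up a median of 63.5% of the summed level in FVB and Nrg4 22.1%. In PyMT the medians were 6.26% for Areg and 5.50% for Nrg4. The ranges overlapped for both, at 21.4 to 89.0% in FVB against 0 to 31.5% in PyMT for Areg and 6.08 to 44.2% against 2.14 to 13.7% for Nrg4. The other PyMT medians were 21.1% for Nrg2, 19.0% for Egf, 16.2% for Tgfa and 12.7% for Btc. The summed level was 24.7 CPM per kb in PyMT (median, 18.3 to 43.8) and 71.5 in FVB (41.7 to 270), and the ranges overlapped. The sum of the receptors was 80.3 CPM per kb in PyMT (66.0 to 91.4) and 61.1 in FVB (30.9 to 90.8). Both the ligand and the receptor sums are scaled to library totals, and neither was tested between genotypes.

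The sheddases that release ERBB ligands from the membrane, and the iRhoms that guide them, were represented by 7 genes, all tested. At each of the 4 weeks 0 were called higher and 2 lower, namely Adam12 and Adam15, where 6.46%, 6.37%, 9.13% and 13.0% of all tested genes were called lower. Adam12, a metalloprotease that can cleave HB-EGF, ran from 54.4 to 257 normalized counts in PyMT and from 499 to 1573 in FVB, with a log2 fold change of -2.91 ± 0.23 over all weeks (edgeR, adjusted p = 1.8e-10). Adam15 ran from 388 to 676 against 845 to 1609, with -1.11 ± 0.11 (adjusted p = 1.2e-08). Adam17, the main sheddase of TGF-alpha and amphiregulin, was not called, with 0.47 ± 0.08 over all weeks (adjusted p = 1.8e-05).

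The adaptors that couple the receptors to RAS, PI3-kinase and phospholipase C were represented by 10 genes. Of these 1 was called lower at week 6 (Plcg1) and none at the other weeks or over all weeks. At the 4 weeks in turn 6.46%, 6.37%, 9.13% and 13.0% of all tested genes were called lower and 3.58%, 3.57%, 4.74% and 7.75% higher. Over all weeks these shares were 17.2% and 8.51%. By the adjusted p alone 5 passed lower and 1 higher over all weeks, or 6 of 10 where 51.1% of all tested genes passed. Plcg1, phospholipase C gamma, had a log2 fold change of -0.74 ± 0.10 (edgeR, adjusted p = 1.6e-06) and Ptpn11, the phosphatase SHP2, one of -0.59 ± 0.09 (adjusted p = 3.9e-06).

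Negative regulators of the receptors numbered 15, of which 0 were called higher at any single week and 1, 1, 1 and 2 lower at weeks 6, 8, 10 and 12, beside the same 6.46%, 6.37%, 9.13% and 13.0% of all tested genes. Cblb, a ubiquitin ligase of activated receptors, was called lower at all 4 weeks, with normalized counts of 211 to 385 in PyMT against 505 to 955 in FVB and a log2 fold change of -1.29 ± 0.13 over all weeks (edgeR, adjusted p = 9.6e-09). The second at week 12 was Spry1, an inhibitor of RAS signalling, at -1.41 ± 0.25 (adjusted p = 0.0045). Cblc, a relative of Cblb found in epithelium, was called higher over all weeks at 1.04 ± 0.32 (adjusted p = 0.0097).

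Of 10 genes that ERK signalling is known to induce 9 were tested, and 2, 1, 2 and 3 were called higher at weeks 6, 8, 10 and 12 and 0 lower. Of all tested genes 3.58%, 3.57%, 4.74% and 7.75% were called higher at these weeks. Etv5, an ETS transcription factor, was called at all 4 weeks, with normalized counts of 700.3 to 2144 in PyMT against 173 to 450 in FVB and a log2 fold change of 2.13 ± 0.19 over all weeks (edgeR, adjusted p = 1.3e-09). The others called were Dusp5, an ERK phosphatase (3.08 ± 0.42 over all weeks, adjusted p = 1.4e-06), at weeks 6 and 12, and Phlda1 (1.86 ± 0.28, adjusted p = 6.1e-06) at weeks 10 and 12. Myc and Egr1 were not called, with -0.52 ± 0.25 and -0.70 ± 0.33. The median of the 9 was 0.58 over all weeks, beside -0.03 for all tested genes.

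The genes set beside ERBB4 and STAT5A, which include milk proteins, were called higher in 4, 3, 4 and 3 of 6 cases at weeks 6, 8, 10 and 12 and lower in none, beside the same 3.58%, 3.57%, 4.74% and 7.75% of all tested genes called higher. Elf5, a luminal transcription factor, ran from 2812 to 5097 normalized counts in PyMT and from 418 to 1204 in FVB (log2 fold change 2.29 ± 0.17 over all weeks, edgeR, adjusted p = 5.7e-11). Wap, whey acidic protein, ran from 206 to 5236 against 0 to 11.6 and had no read in 6 of the 12 FVB libraries, and Lalba, alpha-lactalbumin, ran from 3137 to 9864 against 1.8 to 449. All 3 were called higher at all 4 weeks. Within PyMT, Wap was called lower at week 12 than at week 6 (-3.03 ± 0.55, edgeR, adjusted p = 0.049), where 0.101% of all tested genes were called in either direction. Stat5a and Stat5b themselves were not called, with 0.14 ± 0.10 and -0.11 ± 0.11 over all weeks.

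For each receptor the 3 tested genes with the most similar level over the 24 libraries were found by Pearson r of log2 normalized counts + 1. They are a description of libraries that share genotype and depth. For Egfr they were Plod1 (r = 0.90), Prkg1 (0.90) and Parva (0.89), with r from 0.57 to 0.82 within PyMT and from 0.39 to 0.72 within FVB. For Erbb2 the first and second were Ptprt (0.85) and Vangl1 (0.81), with r of 0.82 and 0.81 within PyMT and of 0.85 and 0.80 within FVB. For Erbb3 they were Pvrl4, which encodes nectin-4 (0.94), Spnb3 (0.93) and Plxna3 (0.92), with r from 0.31 to 0.83 within PyMT and from 0.88 to 0.95 within FVB. For Erbb4 they were Ninl (0.91), 1700086O06Rik (0.90) and Elmo3 (0.90), with r from -0.05 to 0.27 within PyMT and from 0.93 to 0.96 within FVB. The pooled likeness of Erbb4 was therefore seen among the FVB libraries, which include the library at 0, and was not seen within PyMT. By ranks over the 24 libraries (Spearman's rho) the likeness was 0.89 to 0.91 for the genes of Egfr and 0.85 to 0.87 for those of Erbb3. It was lower for Ptprt (0.65) and Vangl1 (0.63) with Erbb2, and for the genes of Erbb4 (0.52 to 0.66).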

How the data were processed

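RNA of 24 samples was sequenced as directional libraries. The authors used GSNAP to align reads to mm9 and HTSeq to count reads in Ensembl genes, and the deposited values are raw counts that were not normalized. The annotation version was not given in the sources used here. GENCODE M1 gave symbols, exons, coding sequence and coordinates, and the NCBIM37 genome the bases shown. The members and gene lists were chosen with earlier results of these data known.

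Counts were tested in R 4.3.3 by edgeR 4.0.16 (quasi-likelihood, TMM) with Benjamini-Hochberg adjustment over the 14918 genes that reached 1 CPM in 12 or more of the 24 samples. Weekly fits used 6 samples, comparisons between weeks within a genotype 12, and changes between weeks and the comparison over all weeks 24. The standard error is the log2 fold change over the square root of F. Normalized counts use DESeq2 1.42.0 size factors, and correlations use log2 with a pseudocount of 1. Total counts were 6969375 to 13516601. A count of 0 allows up to 3 where reads are counted singly, and this limit covers counting error only. It does not hold in the 13 libraries with packets, where a count of 0 can allow more. Replicates came from separate mice and none were copies (chi-square per gene 16.1 to 207 over 24 pairs). The fit was also run on simulated counts with known changes, which held no packets, so that run does not test their effect.

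Members were all named. The third gene by likeness to Erbb2 is not reported here. Of each pathway list, genes called in 1 direction at 3 or more of 4 weeks were named, or else the 2 with the largest log2 fold change over all weeks. Dusp5, Phlda1, Spry1, Cblc, Adam17, Myc, Egr1, Nrg2, Stat5a, Stat5b, Ereg, Epgn and Nrg3 were named after their values were seen. Of the neighbours of Erbb2, Mien1, Pgap3, Grb7 and Stard3 were also named outside this rule. Alternatives were DESeq2's Wald test, RLE factors, library size only, no filter on low counts, limma 3.58.1 voom with sample quality weights, a replicate block, all 24 samples in 1 fit, each sample left out and no libraries with packets.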

Additional observations from a re-analysis of the deposited data

How the results depend on the processing

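The calls of Nrg4 at every week, of Erbb3 at week 10 and of Tgfa over all weeks were kept in all alternatives. No alternative for a single week left out all libraries with packets. The number of members called was 1 at week 6 with library size only (2 with TMM), where Egfr was lost, 3 at week 8 with DESeq2 (Egf and Tgfa added) and 2 without a filter (Egf added), against 1. It was 4 instead of 2 at week 10 with all 24 samples in 1 fit (Erbb4 and Tgfa added), 1 instead of 2 at week 12 in that fit (Erbb4 lost), and 4 instead of 2 over all weeks with library size only (Erbb3 and Erbb4 added). Without a filter Erbb4 was called in PyMT from week 8 to 10 (1 instead of 0). With 1 sample left out the number was 1 to 2 at weeks 6 and 8, 2 to 4 at week 10 and 0 to 1 for the change from week 8 to 10, where leaving out FVB week 10 replicate 2 left 2 FVB samples without a Tgfa read. It was 1 at week 6 without FVB replicate 3, 2 at week 8 without PyMT replicate 3 or FVB replicate 1, and 4 at week 10 without FVB replicate 3.

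Of the differences given by value in the text, those not called that turned in sign were, with library size only, Egf at week 6 (0.28) and week 10 (0.40), Egfr at week 12 (0.043), and Erbb2 (0.017) and Btc (0.21) over all weeks. With voom and sample weights they were Egf at week 6 (0.60) and week 10 (2.70, adjusted p = 0.029) and Erbb4 at week 6 (-0.17). Erbb2 over all weeks was 0.055 in the libraries without packets, which compare the genotypes at weeks 8 and 12 only. Leaving out 1 sample gave ranges across 0 for Egf at week 6 (-0.63 to 0.94) and week 10 (-0.76 to 2.88), Erbb4 at week 6 (-0.24 to 0.69) and week 8 (-0.69 to 0.19), Egfr (-0.47 to 0.091) and Erbb2 (-0.031 to 0.52) at week 12, and Hbegf (-0.17 to 0.26) and Btc (-0.26 to 0.017) over all weeks. Over all alternatives, weekly differences given only as not called also crossed 0, for Nrg1 at week 6 (-2.63 to 0.70), week 8 (-2.70 to 2.35) and week 12 (-0.53 to 2.05), Hbegf at week 8 (-1.36 to 0.35), Btc at week 6 (-0.37 to 0.55), week 8 (-0.70 to 0.10) and week 10 (-0.41 to 1.27) and Erbb2 at week 10 (-0.18 to 0.20). The cause of these shifts was not tested.

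PyMT and FVB samples share replicate numbers. Correlations of their deviations from the group means were -0.03 to 0.18 for samples of the same number and -0.13 to 0.09 for samples of different numbers. At week 10, but not at the other weeks, all same-numbered values (0.06 to 0.16) lay above the different-numbered ones (at most 0.04). The main fits did not take the numbers as pairs, and an effect shared by a replicate number was not tested. A replicate block gave Egf values of 0.38 at week 6 and 1.36 at week 10, 0.13 for Erbb4 at week 8 and -0.0011 for Hbegf over all weeks, and over all weeks it called 3 members instead of 2, with Egf added (1.73). Low members, with 0 reads in up to 2 libraries of a genotype, are limited by 3 samples a group and may be limited by the packets.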

Other observations

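Erbb2 lies in a cluster of genes that is often amplified together in human breast cancer, and its neighbours on mouse chromosome 11 were read beside it. Of 9 neighbours 6 were tested. None was called at weeks 6 and 8, 1 was called higher at week 10 (Mien1, 1.82 ± 0.38, edgeR, adjusted p = 0.015), and at week 12 there were 1 called higher (Pgap3, 1.63 ± 0.38, adjusted p = 0.015) and 2 lower, where 4.74% of all tested genes were called higher at week 10 and 7.75% higher and 13.0% lower at week 12. These 2 were Tcap, a sarcomere protein of muscle (-7.37 ± 2.10, edgeR, adjusted p = 0.033), and Ikzf3, a lymphocyte transcription factor (-2.97 ± 0.96, adjusted p = 0.05), and both were also called lower over all weeks. Grb7 and Stard3, close to Erbb2, had log2 fold changes of -0.29 ± 0.27 and 0.16 ± 0.16 over all weeks and were not called. The median of the 6 was -0.06 over all weeks, beside -0.03 for all tested genes.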
